A study of Mus musculus and Mus spretus with 72 samples.

Results

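The mouse genes Alb, Trf, Fga, Fgb, Fgg, Ahsg, Hpx, Apoa1, Apoa2 and Apoc3 encode proteins that hepatocytes secrete into plasma. They were listed by name, with earlier results of these data known. Each was measured by 1 probe, so the set holds 10 genes and 10 probes of 14386 gene symbols and 22089 probes on the arrays. Total RNA of single male mice of about 12 weeks was hybridised on arrays with 2 channels, together with a same-tissue pool of 9 mice of C57BL6, a laboratory strain. Liver/kidney had 24 of the 72 arrays: 6 of Mus musculus domesticus (dom), 6 of M. m. musculus (mus), 3 of M. m. castaneus (cas), 6 of M. musculus whose sub-species the labels leave unnamed (ssp) and 3 of M. spretus (spretus). The 4 groups other than spretus are called the house mouse groups. Brain and testis of the same groups serve as comparison tissues. The comparisons ask how far expression had diverged between sub-species and between species.

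Values are deposited log ratios, taken as log2 of sample over pool, and each array was centred on its median. A value of 0 therefore stands for the level in the pool, after centring, and not for absence of the RNA. Neither the base nor the direction of the ratio is stated in the sources used here. The direction is likely because channel 2 holds the sample on every array, and an inverted ratio would turn every sign. No array had its dyes exchanged, so a difference from the pool cannot be told apart from a difference between dyes. Ratios give no order of abundance between genes. The labels name liver and kidney together without saying how they were combined. In such bulk RNA, fewer hepatocytes and less RNA per hepatocyte cannot be told apart. Replicates were different animals by their labels.

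Between 42825 and 44832 spots per liver/kidney array carried a value. The arrays fell into sets that share the same missing spots. Set 1 held all 18 dom, mus and ssp arrays, set 2 held the 3 cas arrays with spretus 01 and 03, and spretus 02 stood alone. Spretus 02 also had the widest spread of spot values of the 24 arrays (SD 0.462) and cas 03 the next widest (0.432), against 0.205 to 0.346 on the others. Spretus calls are given with and without spretus 02.

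Plasma proteins of the liver carry ligands, clot blood and move lipid. Albumin (Alb) binds fatty acids and keeps the osmotic pressure of plasma, transferrin (Trf) carries iron, and hemopexin (Hpx) binds free heme. The chains Fga, Fgb and Fgg assemble into fibrinogen, the precursor of fibrin clots, and Ahsg (fetuin-A) binds calcium phosphate. Apoa1 and Apoa2 are the main proteins of high-density lipoprotein, and Apoc3 slows the clearance of triglyceride-rich particles. In the RefSeq gene table (GRCm38.p6), Fgg, Fga and Fgb follow one another on chromosome 3, and Apoa1 lies next to Apoc3 on chromosome 9. Alb lies next to Afp on chromosome 5, and Ahsg next to Fetub on chromosome 16.

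RefSeq promoter sequences (GRCm38.p6) were matched for 8 of the 10 genes. Trf and Apoc3 had no entry. The 150 bases before the start site are shown for Alb and the fibrinogen genes, because 3 of these 4 genes were among those called lower in spretus and the fibrinogen genes are neighbours that did not all do so. Alb lies at chr5:90460720-90460869 on the plus strand, Fga at chr3:83026003-83026152 on the plus strand, Fgb at chr3:83049864-83050013 on the minus strand and Fgg at chr3:83007574-83007723 on the plus strand. Capitals mark matches, on either strand, to 5 motifs: the CCAAT box (CCAAT), the TATA box (TATAAA), a half-site of the liver factor HNF1 (GTTAAT), a C/EBP pattern (TTNNGNAAT, where N is any base) and the core of the interleukin-6 response element (CTGGGA).
Alb: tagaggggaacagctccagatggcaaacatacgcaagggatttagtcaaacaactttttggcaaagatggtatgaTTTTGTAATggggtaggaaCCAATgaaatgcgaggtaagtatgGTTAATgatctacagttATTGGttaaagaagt
Fga: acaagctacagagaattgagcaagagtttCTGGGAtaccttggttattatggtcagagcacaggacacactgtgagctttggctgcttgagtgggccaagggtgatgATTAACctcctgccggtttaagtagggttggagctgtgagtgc
Fgb: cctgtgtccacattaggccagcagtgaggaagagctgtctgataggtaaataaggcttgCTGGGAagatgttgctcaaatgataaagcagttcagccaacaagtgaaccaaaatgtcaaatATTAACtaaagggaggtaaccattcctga
Fgg: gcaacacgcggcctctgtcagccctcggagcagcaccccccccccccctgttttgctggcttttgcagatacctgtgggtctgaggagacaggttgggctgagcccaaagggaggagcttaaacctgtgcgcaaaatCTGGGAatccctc

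The HNF1 half-site lay in the windows of Alb, Fga and Fgb, and in 3.71% of all 32851 promoter windows of 150 bases. CTGGGA or its complement was found in Fga, Fgb, Fgg and Apoa1, against 17.7% of all windows. The C/EBP pattern occurred in Alb and Ahsg (5.71% of all windows) and CCAAT in Alb, Hpx and 1 of 2 entries of Apoa2 (24.5%). TATAAA was in none of the windows of these 8 genes and in 7.57% of all. A match is a description of letters, and no binding was measured.

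In liver/kidney, the mean of the 4 house mouse groups was higher than the C57BL6 pool for 9 of the 10 genes. The threshold of this contrast was a limma adjusted p under 0.05 over all 20652 probes tested. That contrast called 31.4% of all probes in either direction. With the sets of arrays that share missing spots as a random block (estimated correlation 0.35) none of the 9 was called, and the adjusted p-values against the pool below are from the fit without that block. The log2 difference of these genes had a median of 0.25, against 0.00 for all probes, and ran from 0.09 for Alb, the gene not called, to 0.37 for Trf. In dom, the group mean of Apoc3 was 1.41 times the pool and that of Apoa2 1.11 times. Among the 9 called genes, Fgb had a group mean below 0 in ssp (-0.12) and Ahsg in cas (-0.03). The mean of the 10 genes was lower on each of the 3 spretus arrays than on any of the 21 house mouse arrays. Spretus was not tested against the pool; its group means were above 0 for Apoa1, Apoa2 and Apoc3 and below 0 for the other 7 genes.

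**Figure D1:**
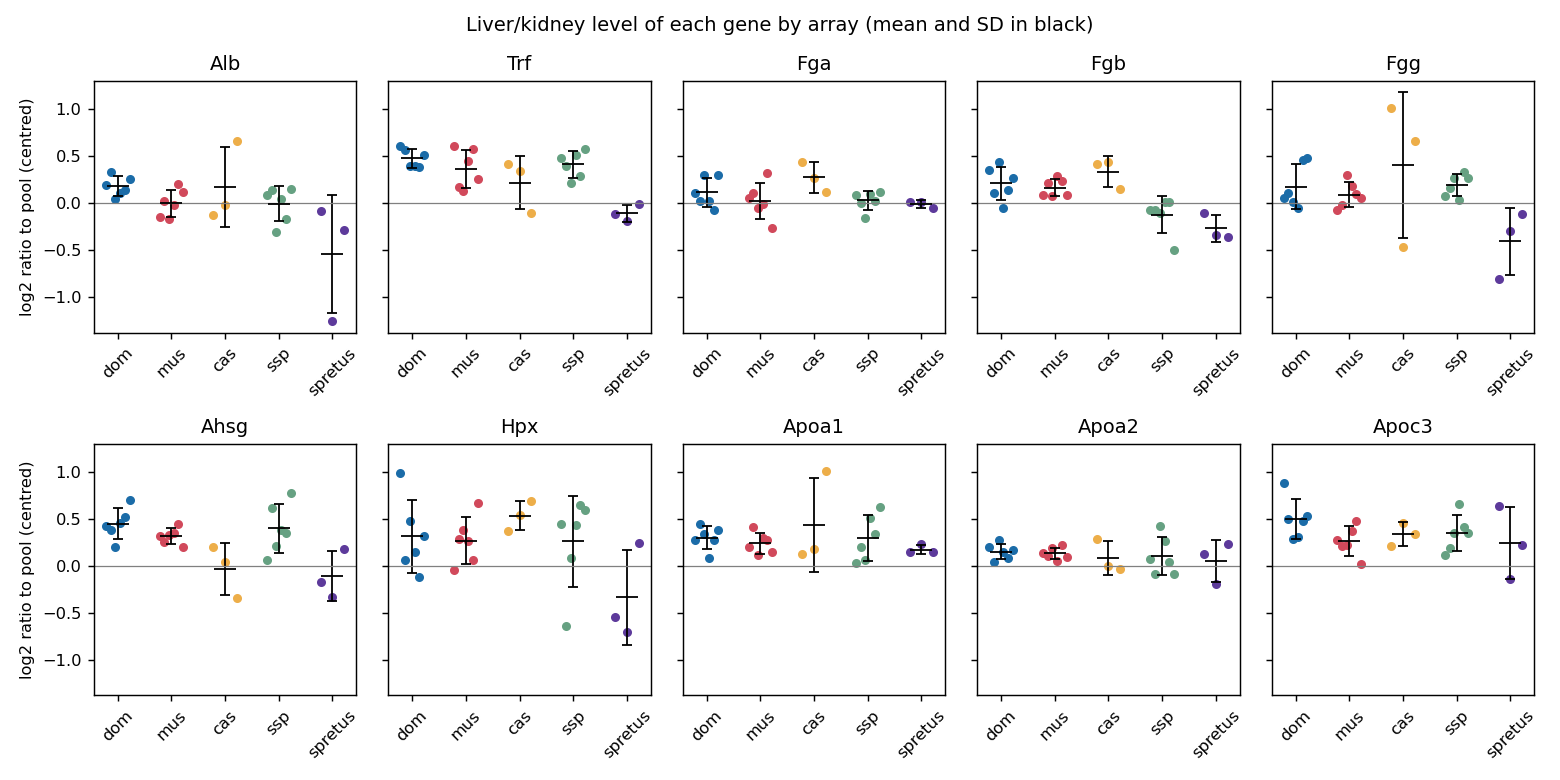
Centred log2 ratio to the pool of each gene on each of the 24 liver/kidney arrays, by group; points are arrays (6, 6, 3, 6 and 3) and black bars the mean and SD. Trf lay above 0 on 20 of the 21 house mouse arrays and below 0 on all 3 spretus arrays, while Apoa1 lay above 0 on all 24.

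Trf had centred log2 ratios from 0.39 to 0.61 in dom (median 0.45), 0.13 to 0.60 in mus (0.35) and 0.22 to 0.57 in ssp (0.44). In cas, arrays 01, 02 and 03 read 0.42, 0.34 and -0.10, and in spretus -0.12, -0.19 and -0.01, the order used for both groups throughout. Only 1 house mouse array, cas 03, fell below the highest spretus array. The house mouse groups were higher than the pool by 0.37 ± 0.04 (log2 difference ± SE, limma, adjusted p 9.9e-08), the smallest p of the set. Spretus was lower than the house mouse groups by a log2 difference of -0.48 ± 0.10 (adjusted p 0.0058). On the first spot alone the difference was -0.60 (adjusted p 0.0066), and on the second it was -0.36 and not called (adjusted p 0.058). Within set 2, spretus minus cas was -0.28 ± 0.18 and not called by limma (adjusted p 0.73).

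Alb, the other main carrier, showed a different distribution. Its ratios ran from 0.05 to 0.34 in dom (median 0.17), -0.16 to 0.20 in mus (0.00) and -0.31 to 0.15 in ssp (0.07). The cas arrays read -0.12, -0.02 and 0.66, and the spretus arrays -0.08, -1.25 and -0.29. The value of spretus 02 came from both of its spots, -1.20 and -1.25 as deposited. Spretus was lower by a log2 difference of -0.63 ± 0.16 (adjusted p 0.018), but without spretus 02 the difference was -0.27 (adjusted p 0.34). The ranges of spretus and the house mice overlapped, with 5 house mouse arrays below the highest spretus array. Against the pool, the house mouse groups differed by 0.09 ± 0.06, which did not pass (adjusted p 0.27). Without cas 03 this difference was 0.03 (adjusted p 0.78).

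Hpx, the heme carrier, varied most of the 10, with an SD of 0.42 over the 24 arrays, above 95.9% of all probes. It ran from -0.12 to 0.99 in dom (median 0.23), -0.04 to 0.67 in mus (0.27) and -0.64 to 0.65 in ssp (0.44), with 0.38, 0.54 and 0.69 in cas and -0.54, -0.70 and 0.24 in spretus. The lowest ssp value, array 02, averaged deposited spots of 0.35 and -1.64, the largest gap between duplicate spots of any of the 10 genes. Hpx was higher than the pool by 0.34 ± 0.08 in the house mouse groups (adjusted p 0.0022). Its spretus difference of -0.68 ± 0.22 was the largest of the set but missed the threshold (adjusted p 0.059). Of 24 fits that each left out 1 array, 2 called Hpx, among them the fit without ssp 02 (-0.72, adjusted p 0.018). Differences over these 24 fits ran from -0.97 to -0.50, the weakest without spretus 02, with adjusted p up to 0.33. Of 8 other settings, only the first spot alone called it (-0.66, adjusted p 0.021). With the array set as a random block its adjusted p was 0.44.

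Of the fibrinogen chains, Fgb and Fgg were called lower in spretus and Fga was not. Fgb ran from -0.05 to 0.43 in dom (median 0.21), 0.08 to 0.29 in mus (0.15) and -0.50 to 0.02 in ssp (-0.07), with 0.42, 0.44 and 0.15 in cas and -0.11, -0.34 and -0.36 in spretus. A single house mouse array, ssp 06, was below the highest spretus array. The spretus difference of Fgb was -0.42 ± 0.10 (adjusted p 0.011), and -0.38 without spretus 02 (adjusted p 0.064). The ssp group was also low: its difference from dom, mus and cas was -0.36 ± 0.08, with an adjusted p of 0.076.

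Fgg ran from -0.05 to 0.48 in dom (median 0.08), -0.07 to 0.30 in mus (0.08) and 0.04 to 0.33 in ssp (0.21). The cas arrays were spread widely at 1.02, -0.46 and 0.66, and spretus read -0.80, -0.30 and -0.12. On cas 02 the deposited spots of Fgg were 0.29 and -1.24, so the low value came from 1 spot. Spretus was lower by -0.62 ± 0.18 (adjusted p 0.037), and without spretus 02 the difference was -0.68 (adjusted p 0.081). Fga moved little: its group means lay between -0.01 in spretus and 0.27 in cas, and its spretus difference was -0.12 ± 0.09 (adjusted p 0.50). Differences of these chains in spretus were not tested against each other.

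Against the pool, all 3 chains were higher in the house mouse groups, Fga by 0.11 ± 0.03, Fgb by 0.15 ± 0.04 and Fgg by 0.22 ± 0.07 (adjusted p 0.015, 0.0032 and 0.016). That of Fgg moved with the cas arrays: it was 0.14 without cas 01 (adjusted p 0.099), 0.32 without cas 02 (adjusted p 2.9e-05) and 0.18 without cas 03 (adjusted p 0.068). Within set 1 Fga and Fgb were not called (0.06, adjusted p 0.22, and 0.08, adjusted p 0.082). Cas had the highest group mean of every chain, and it belongs to set 2. The ssp group went the other way for Fgb, with a mean of -0.12 and 2 of 6 arrays above 0.

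Ahsg was above 0 on all 18 dom, mus and ssp arrays. It ran from 0.20 to 0.70 in dom (median 0.44), 0.20 to 0.45 in mus (0.32) and 0.07 to 0.77 in ssp (0.37). Cas and spretus, the groups outside set 1, were lower: cas read 0.21, 0.04 and -0.34 and spretus -0.17, -0.34 and 0.18. Within set 2, spretus and cas differed by 0.04 ± 0.20 (adjusted p 0.97). The 4 house mouse groups together were higher than the pool by 0.28 ± 0.04 (adjusted p 3.7e-05). The spretus difference was -0.39 ± 0.12 with an adjusted p of 0.051, and the cas difference from dom and mus -0.41 ± 0.13 with an adjusted p of 0.11. As the sets and these groups nearly coincide, their parts cannot be told apart here.

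The apolipoproteins rose against the pool and showed no called difference between groups. Apoa1 was above 0 on all 24 arrays, with group means from 0.17 ± 0.05 in spretus (SD, n = 3) to 0.44 ± 0.49 in cas (n = 3), where array 03 read 1.01. Apoc3 was above 0 on all 21 house mouse arrays and had its highest mean in dom (0.50 ± 0.21, n = 6). Spretus Apoc3 read 0.64, -0.13 and 0.22, so 1 array lay below and 1 above most house mice. Apoa2 varied least of the 10 (SD 0.14 over 24 arrays), with group means from 0.06 to 0.15. The house mouse groups were higher than the pool by 0.32 ± 0.05 for Apoa1, 0.36 ± 0.05 for Apoc3 and 0.12 ± 0.03 for Apoa2 (adjusted p 1.9e-05, 2.5e-06 and 0.011). Spretus differed from the house mice by -0.14 ± 0.13, -0.12 ± 0.13 and -0.06 ± 0.09 in the same order, none called.

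Among the sub-species no gene of the set was called by limma in any contrast. For mus minus dom, all 10 differences were below 0, with a median of -0.09 and a range of -0.24 (Apoc3) to -0.02, none at an unadjusted p under 0.05, where 0.591% of all probes were called. In the limma fit within set 1 alone, Alb and Apoc3 had an unadjusted p under 0.05 (0.047 and 0.034). None of the 10 was called there, and 0.819% of all probes were. For cas minus dom and mus the median was 0.11, with 2 genes at an unadjusted p under 0.05 and 1.11% of all probes called. For ssp minus dom, mus and cas the median was -0.03, with 1 such gene, Fgb, and 0.0436% of all probes called. No pair of house mouse groups next to each other in the order of means was called for any gene. Dom had the highest mean for Alb, Trf, Ahsg, Apoa2 and Apoc3, cas for Fga, Fgb, Fgg, Hpx and Apoa1, and spretus the lowest for all 10. The group next above spretus was cas for Trf and Ahsg and ssp for Alb and Fgb, and none of these pairs was called.

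Against the mean of the house mouse groups, spretus was below 0 for all 10 genes, with a median log2 difference of -0.40 against 0.00 for all probes. The test called 4 lower (Trf, Alb, Fgb and Fgg) and none higher, where 7.49% of all probes were called, and 6 had an unadjusted p under 0.05. Without spretus 02 only Trf was called (-0.43, adjusted p 0.044), the median was -0.27, and Apoa2 and Apoc3 were above 0. Fgg was not called without spretus 01 (-0.43, adjusted p 0.22), nor Fgb without spretus 03 (-0.37, adjusted p 0.054), while leaving out spretus 03 brought in Ahsg and Hpx. With the array set as a random block none of the 10 was called (median -0.41, adjusted p of Trf 0.16), while Trf, Alb, Fgb and Fgg kept differences of -0.42 to -0.65. Within set 2, spretus 01 and 03 against the 3 cas arrays, 7 differences were below 0 and 3 above, with a median of -0.29. There 2 genes had an unadjusted p under 0.05, and 0 of the 10 genes and 0% of all probes were called by limma.

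Pair by pair, spretus against dom called Trf, Alb, Ahsg and Fgb (-0.59, -0.72, -0.55 and -0.48), where 5.32% of all probes were called. Without spretus 02, Trf (-0.54, adjusted p 0.020) and Fgb (-0.44, adjusted p 0.048) were called there, while Ahsg was at -0.44 (adjusted p 0.11) and Alb at -0.36 (adjusted p 0.21). Spretus against mus called Trf and Fgb, with 5.3% of probes called, and spretus against ssp called Trf and Ahsg, with 5.1% called; without spretus 02 neither pair called a gene of the set. Against cas, Fgb was the 1 gene called (-0.60 ± 0.13, adjusted p 0.011, 3.8% of probes called), also without spretus 02 (-0.57, adjusted p 0.035), but not in the fit within set 2 (-0.57, adjusted p 0.47). Hpx (-0.87), Fgg (-0.81) and Alb (-0.71) had larger differences from cas that missed the threshold (adjusted p 0.090, 0.055 and 0.059), and 6 of the 10 genes had an unadjusted p under 0.05. The pairs without spretus called none of the 10 genes. They had 2 genes at an unadjusted p under 0.05 for cas minus dom (0.692% of probes called), 1 for ssp minus dom (0.291%), 2 for cas minus mus (0.784%), 1 for ssp minus mus (0.392%) and 3 for ssp minus cas (0.0194%). In the fit within set 1, ssp minus dom had 2 such genes (1.1% of probes called) and ssp minus mus 1 (0.926%), none of them called.

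The difference from the pool was also seen without the arrays of set 2. There, dom, mus and ssp together were higher than the pool for 7 of the 10 genes, where 31.8% of all probes were called, and the median was 0.22. Ahsg (0.39 ± 0.04) and Trf (0.42 ± 0.04) had the largest differences there. With the array set as a random block, estimated from 3 sets, the median was 0.24 and the smallest adjusted p of the 10 that of Trf, 0.12. Without cas 01, Fga, Fgg and Apoa2 were not called (adjusted p 0.062, 0.099 and 0.055). The pool is 1 sample, so these tests leave out its own spread.

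**Figure D2:**
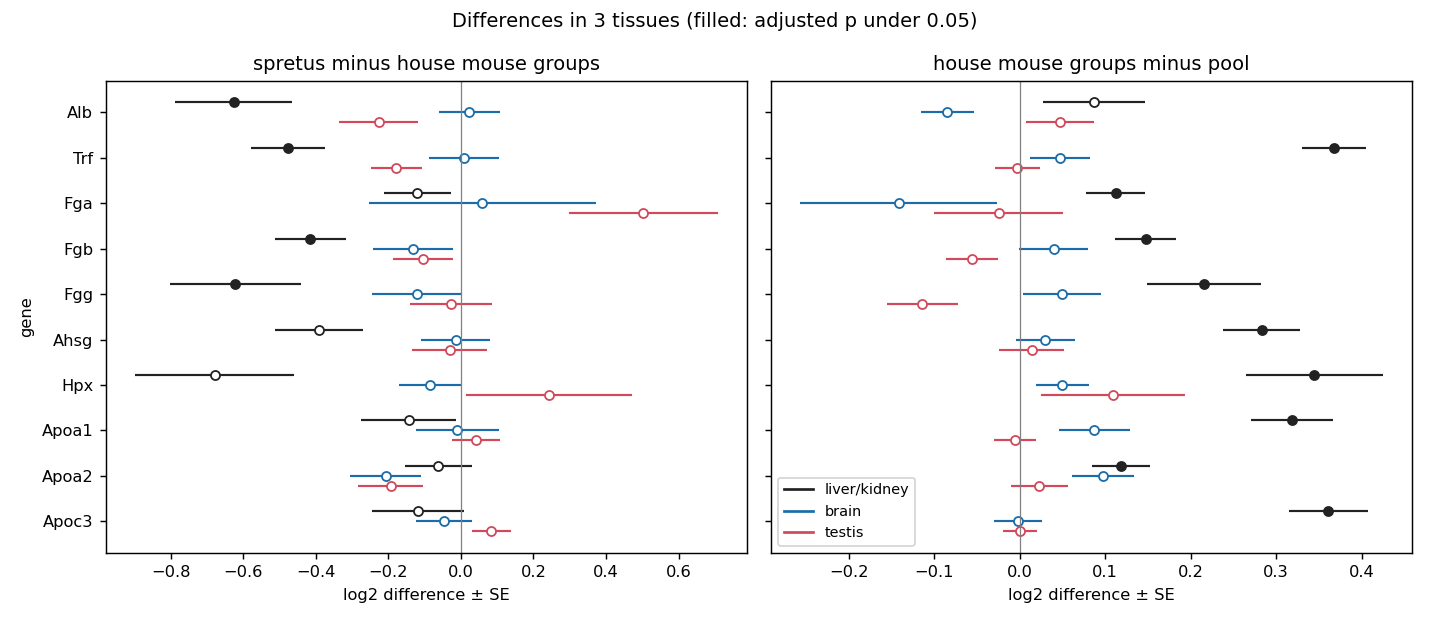
Log2 differences with SE of the 10 genes for spretus minus the house mouse groups (left) and the house mouse groups minus the pool (right), in liver/kidney, brain and testis; filled points passed an adjusted p under 0.05. Filled points occur in liver/kidney alone, 4 on the left and 9 on the right.

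In brain and testis no gene of the set was called by limma. The ratios do not show how much RNA of these genes either tissue held. A lack of calls there, and a difference between tissues, therefore has no clear reading. Spretus differed from the house mice by a median of -0.03 in brain (1 gene at an unadjusted p under 0.05, 3.95% of all probes called) and -0.03 in testis (4 genes, 9.42% called). The house mouse groups differed from the pool by a median of 0.04 in brain (3 genes at an unadjusted p under 0.05, 8.95% called) and 0.00 in testis (1 gene, 13.1% called). Fga had an SD of 0.55 over the brain arrays and 0.37 over the testis arrays, against 0.16 in liver/kidney. Apoa2 also varied more in brain (0.17) and testis (0.15) than in liver/kidney (0.14), by less. In testis the SD of Hpx, 0.385, was above that of Fga. Over the 10 genes the median SD was 0.24 in liver/kidney, 0.17 in brain and 0.17 in testis, while the median over all probes was 0.17, 0.19 and 0.16.

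Differences between tissues were tested with limma over the 72 arrays together, with each animal as a random block. Spretus minus house mice, in liver/kidney minus the mean of brain and testis, was called for Alb (-0.52 ± 0.15, adjusted p 0.030) and Trf (-0.39 ± 0.11, adjusted p 0.026), where 4.42% of all probes were called. Without spretus 02 in liver/kidney neither was called (Alb -0.17, adjusted p 0.65; Trf -0.35, adjusted p 0.12). The same tissue difference for house mice minus the pool, a contrast added after the values were seen, was above 0 for all 10 genes and called for 7, where 18.3% of all probes were called. Apoc3 (0.36 ± 0.04), Trf (0.35 ± 0.04), Apoa1 (0.28 ± 0.05), Hpx (0.27 ± 0.09), Ahsg (0.26 ± 0.05), Fgg (0.25 ± 0.07) and Fgb (0.16 ± 0.04) passed, and Alb, Fga and Apoa2 did not.

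After group means were removed, the 45 pairs of genes had a median Pearson r of 0.13 over the 24 arrays (median Spearman rho 0.12), against 0.00 for all pairs of the 13006 genes measured on every array. Over the 24 arrays, an r above 0.3 was found for 9 of the 45 pairs, compared with 13.8% of all pairs of genes. Within the 18 arrays of set 1 it was found for 14 of the 45. The share of all pairs of genes was not computed there, so the 14 have no background to be read against. Correlations below 0 were found for 14 pairs. Leaving out spretus 02 brought the median to 0.04, and within the 18 arrays of set 1 it was 0.12. With group means left in, the median was 0.27. These correlations are descriptions over arrays that share a pool, a centring and, within sets, a pattern of missing spots.

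**Figure D3:**
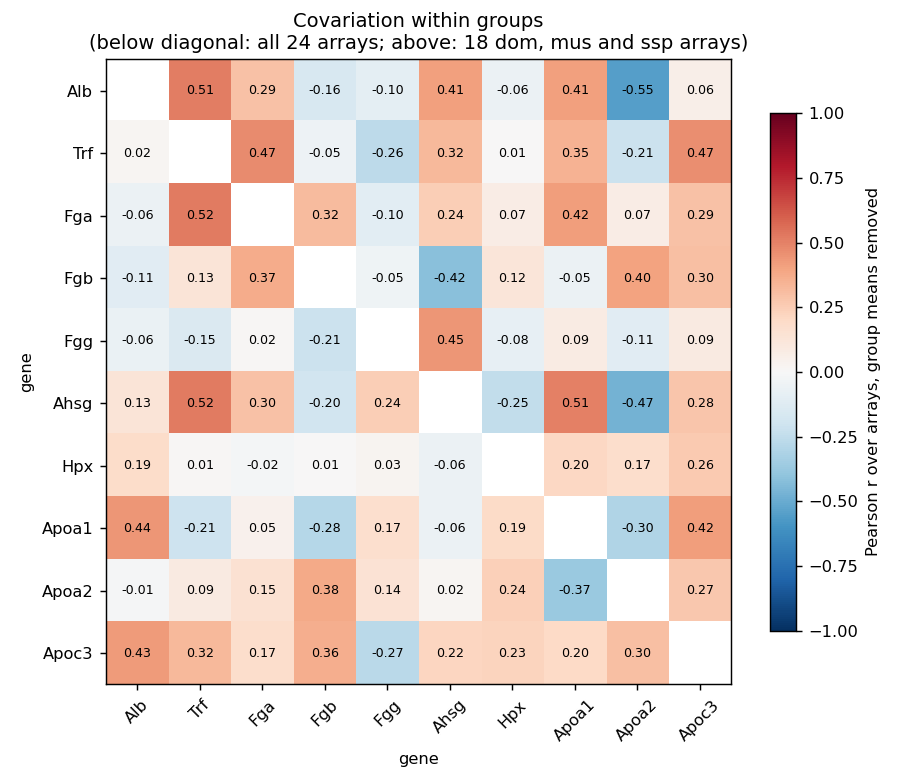
Pearson correlation of each pair of the 10 genes over liver/kidney arrays with group means removed; below the diagonal all 24 arrays, above it the 18 arrays of dom, mus and ssp. Trf with Fga (0.52) and Trf with Ahsg (0.52) are the highest below the diagonal, and Fgb with Fgg (-0.21) is among those below 0.

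The highest pairs were Trf with Fga (r 0.52, rho 0.50, and r 0.46 without the 2 arrays farthest in Trf) and Trf with Ahsg (0.52, 0.50 and 0.47), followed by Alb with Apoa1 (0.44, 0.40 and 0.44). All 3 were also above 0 within set 1 (0.47, 0.32 and 0.41). Chromosomal neighbours were not uniformly alike. Fga and Fgb correlated at 0.37, Fga and Fgg at 0.02, and Fgb and Fgg at -0.21, although the 3 chains form 1 protein. Within set 1 the same pairs had 0.315, -0.10 and -0.05 in this order. Apoa1 and Apoc3, neighbours on chromosome 9, correlated at 0.20 over 24 arrays and 0.42 within set 1. Apoa1 and Apoa2, which share high-density lipoprotein, had the lowest r of all pairs (-0.37, rho -0.33).

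How well a probe was measured bears on these values. The 2 spots of a probe correlated over the arrays at 0.98 for Alb, 0.86 for Fgb, 0.80 for Ahsg and 0.75 for Apoc3. The other genes lay between 0.55 and 0.64, apart from Apoa2 at 0.23. The median over the 10 genes was 0.64, against 0.46 over all probes. Set against the mean of the other 9 genes with group means removed, Apoc3 had the highest r (0.45, and 0.63 within set 1). Without spretus 02 it had 0.27 and Fga the highest, 0.38. Over all 24 arrays Fgb (0.01) and Fgg (-0.01) did not follow it.

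A wider list of other plasma protein genes was read beside the 10. Of its 55 genes tested by gene mean, 4 were lower in spretus and none higher, where 8.38% of 13643 genes were called: Ttr, the thyroxine and retinol carrier (-1.22 ± 0.24), Itih4 (-0.52 ± 0.12), Serpina1b, an elastase inhibitor (-1.33 ± 0.32), and Apoc2. The median of that list was -0.05. Without spretus 02, where 5.27% of genes were called, none of these 4 passed (Ttr -0.81, adjusted p 0.057; Serpina1b -0.85, adjusted p 0.17; Itih4 -0.36, adjusted p 0.10; Apoc2 -0.21, adjusted p 0.38). Mbl2 of the list was called higher in that fit, and none lower. In the fit by gene over all arrays, Ahsg was also called, so 5 of the 10 passed. Without spretus 02 only Trf did (-0.43, adjusted p 0.040). Against the pool, 22 of the 55 were higher and 2 lower, where 32.4% of genes were called, with a median of 0.07. Serpina1d (0.69 ± 0.09) and F2, prothrombin (0.42 ± 0.06), had the smallest p there. In cas against dom and mus, 4 were higher and none lower, Itih4 (0.77 ± 0.12) and Mug1 (0.69 ± 0.15) first, where 1.42% of genes were called.

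In spretus, more genes lay below 0 than above in each of 4 further lists, and also in the kidney list given below. Of all genes, 8.38% were called in this contrast. Without spretus 02 the counts were nearer to even. Then 15 of 25 enzymes and transporters, 9 of 17 transcription factors, 10 of 19 receptors and partners and 7 of 13 acute-phase genes lay below 0. Of 25 hepatocyte enzymes and transporters, 19 were below 0 (median -0.13), with Adh4 called higher (0.70 ± 0.21) and Bhmt lower (-0.35 ± 0.11). Of 18 liver transcription factors, 11 were below 0, and Dbp was called lower (-0.71 ± 0.15) and none higher. Among 19 receptors and partners of these proteins, 14 were below 0, and Itgb3, a chain of a fibrinogen receptor, was called lower (-0.46 ± 0.14) and none higher. That list is not limited to hepatocyte genes, and its Lrp2 and Cubn are also in the kidney list. Of 13 acute-phase genes, 8 were below 0, and Itih4 and Hamp, the iron hormone hepcidin (-0.51 ± 0.12), were called lower and none higher. Some acute-phase genes, Itih4 among them, are also in the list of other plasma protein genes. Without spretus 02, Adh4 was still called (0.93, adjusted p 0.022), while Bhmt (-0.21), Dbp (-0.42), Itgb3 (-0.29) and Hamp (-0.22) were not, at adjusted p of 0.38, 0.11, 0.33 and 0.21. That fit, with 5.27% of all genes called, also called Slc27a5 and Ugt2b1. With Adh4, the enzymes and transporters then had 2 higher and 1 lower. Nr1i2 of the transcription factors was called higher there. Spretus 02 had the lowest mean of all 24 arrays for enzymes and transporters (-0.17), transcription factors (-0.19), receptors and partners (-0.20) and acute-phase genes (-0.22). The other 2 spretus arrays lay within the range of the house mouse arrays for these 4 lists.

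Against the pool, where 32.4% of all genes were called, these lists had calls in both directions. The enzymes and transporters had 7 higher and 2 lower, Otc (0.33 ± 0.04) and Cyp8b1 (0.22 ± 0.04) first. The transcription factors had 2 higher and 4 lower, with Creb3l3 at -0.48 ± 0.06 and Foxa1 at -0.29 ± 0.05. The receptors and partners had 3 higher and 1 lower, Itgb3 at 0.22 ± 0.05 and Scarb1, the receptor of high-density lipoprotein, at -0.28 ± 0.06. The acute-phase list had 5 higher and 1 lower, with Itih4 at 0.30 ± 0.04 and Il1r1 at 0.18 ± 0.03.

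Markers of other cells were read beside these results, since liver/kidney holds both organs. Of 29 kidney genes, 17 lay below 0 in spretus and 12 above (median -0.05), the same direction as in the hepatocyte lists. Without spretus 02, 14 lay below and 15 above. With all arrays, Umod of the thick ascending limb was called higher in spretus (0.72 ± 0.12). Slc5a2, the proximal glucose carrier, was called lower (-0.40 ± 0.11). Without spretus 02 Umod was still called (0.63, adjusted p 0.011), Slc5a2 was not (-0.38, adjusted p 0.12), and Slc22a8 was also called higher. Of all genes, 8.38% were called with spretus 02 and 5.27% without it. Against the pool 8 kidney genes of 29 were higher and 6 lower (32.4% of all genes called), with Aqp2 at -0.57 ± 0.05 and Slc5a2 at 0.26 ± 0.04. The mean of the kidney list lay between -0.11 and 0.10 on the house mouse arrays and between -0.03 and 0.05 on the spretus arrays, so these ranges overlapped. Its group means ran from -0.05 in dom to 0.03 in cas. Cas had Umod and Slc22a8 higher than dom and mus (0.56 ± 0.13 and 0.47 ± 0.12), and mus had Scnn1g higher than dom (0.52 ± 0.10, with 0.748% of genes called).

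The blood cell list had 5 genes tested. In spretus Hbb-b2 was higher (0.74 ± 0.22), but not called without spretus 02 (0.24, adjusted p 0.59), the array with the highest mean of this list among the 24 (0.47). In cas Hba-a1 was higher (1.01 ± 0.19), and against the pool 2 were higher and 2 lower, with Hba-a1 at 0.64 ± 0.07 and Alas2 at -0.10 ± 0.02. Of 18 genes of other liver cells, 9 lay above 0 and 9 below in spretus (median 0.00), where 8.38% of genes were called. Sox9 was the 1 gene of the list called there, higher (0.54 ± 0.10, and 0.46 without spretus 02, adjusted p 0.023). Col1a1 was higher in cas (0.65 ± 0.16). Against the pool 5 of the 18 were higher and 6 lower, again beside 32.4% of all genes, with Cdh5 at 0.20 ± 0.03 and Col3a1 at 0.36 ± 0.05. In ssp against dom, mus and cas no gene of any of these lists was called, where 0.117% of genes were. The part of cell composition in the differences of the 10 genes was not tested.

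**Figure D4:**
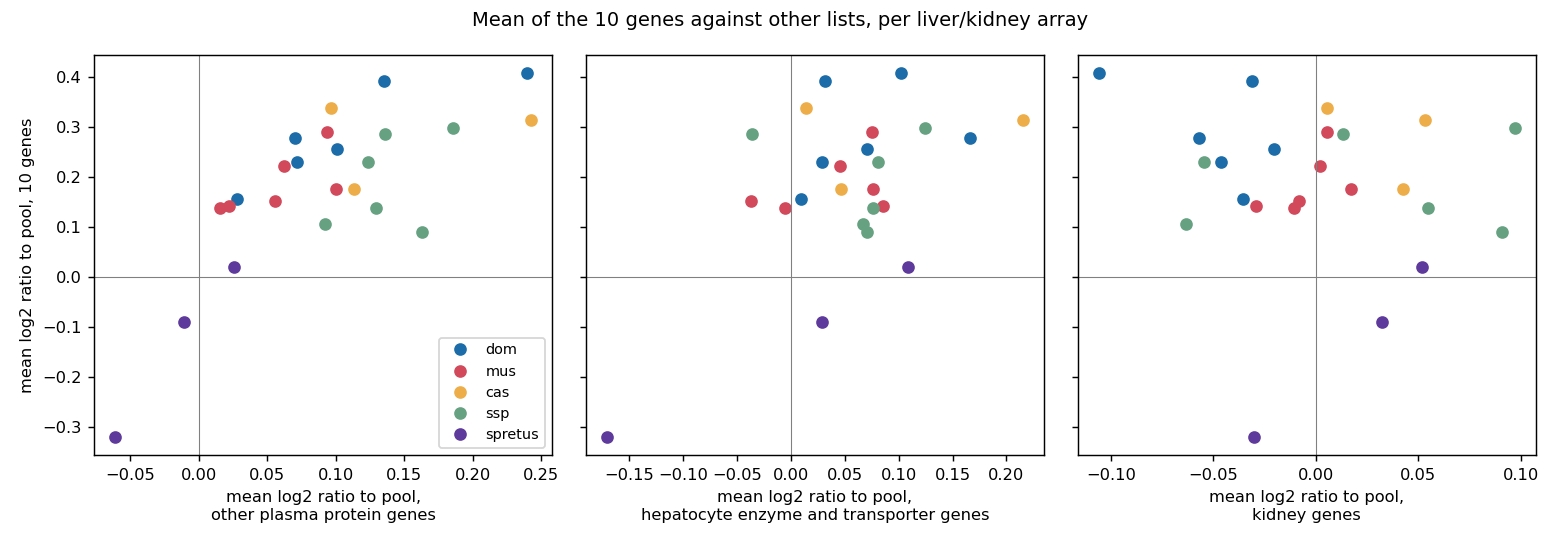
Mean log2 ratio to the pool of the 10 genes on each liver/kidney array against the mean of the other plasma protein genes (left), of hepatocyte enzyme and transporter genes (middle) and of kidney genes (right); points are arrays coloured by group. Points rise from left to right in the left panel, and the 3 spretus arrays lie lowest in each.

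Per array, the mean of the 10 genes followed that of 61 other plasma protein genes, with r 0.73 (rho 0.65) over the 24 arrays and 0.64 (rho 0.66) with group means removed. The latter was 0.64 without the 2 farthest arrays, and 0.89 in dom, 0.68 in mus and 0.41 in ssp over 6 arrays each. For hepatocyte enzymes and transporters it was 0.47 (rho 0.45), which fell to 0.31 without the 2 farthest arrays. By group, the enzymes and transporters gave 0.32 in dom, 0.42 in mus and -0.16 in ssp. The acute-phase genes outside the set gave 0.60 (rho 0.48, and 0.46 without the 2 farthest), with 0.41 in dom, 0.85 in mus and 0.14 in ssp.

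The kidney list gave 0.13 (rho 0.13), with -0.52 in dom, 0.55 in mus and 0.09 in ssp, so the groups disagreed in sign. They also did so for the enzymes and transporters, the transcription factors, the receptors and partners and the other liver cells. With group means removed the liver transcription factors gave 0.17, the receptors and partners 0.28, blood cells -0.17 and other liver cells -0.09. Without the 2 farthest arrays the first 2 of these fell below 0 (-0.07 and -0.09). The genes most like the mean of the 10, by Pearson r over the 24 arrays with group means removed, were Nav2 (0.80), Ddah2 (0.80), Ankrd16 (0.73), Mfn2 (0.73) and Sdk2 (0.73), out of 13732 genes scanned with a median r of 0.03. Without spretus 02 these were 0.69, 0.74, 0.68, 0.58 and 0.61 in the same order. With group means left in, over all 24 arrays, they were 0.81, 0.56, 0.04, 0.51 and 0.55, so Ankrd16 did not follow the mean there. None of the 5 belongs to the lists above.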

How the data were processed

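Array titles gave each sample's group and animal number. The authors deposited 1 processed log ratio per spot, taken as log2. How arrays were scanned and normalised is not given in the sources used here. Among the 46128 spots of an array were 22320 pairs of neighbouring duplicates, which were averaged. 1488 single spots were left out and the 232 pairs of a repeated control merged, leaving 22089 probes. Gene names came from the platform's probe annotation (1 symbol for 15801 probes, several for 294, none listed for 5994).

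Each array was centred on its median. limma 3.58.1 (R 4.3.3, version 1.17.8 of data.table; lmFit with 1 coefficient per group, then eBayes) was run on probes with at least 2 values per group, and p-values were two-sided and Benjamini-Hochberg adjusted over all probes. A gene was called under 0.05. Lists were counted on 1 mean value per symbol. The fit was tested on simulated data. Correlations, plots and sequence searches used Python 3.11.15, numpy 2.4.6, pandas 2.3.3 and matplotlib 3.10.9. The 10 genes and all lists were chosen with earlier results of these data known.

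All 10 genes were named with every probe. From each other list, up to 3 called genes with the smallest p were named for the spretus contrast and up to 2 for each other contrast, and from outside the set the 5 genes with the highest r to its mean, measured on at least 20 arrays and passing over RIKEN, Gm, expressed-sequence and LOC names. Apoc2 was named after its value was seen, as were Mbl2, Slc27a5, Ugt2b1 and Nr1i2. Alternatives were quantile normalisation, no centring, array weights, probes complete on all arrays, the array set and the animal number as blocks, single spots and leaving out each array. Precision is limited by the number of arrays.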

Additional observations from a re-analysis of the deposited data

Results flagged for a closer look

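In 30 sets of 6 arrays, 1 for each of the 10 genes in dom, mus and ssp, a single array stood far from the rest. Fgb on ssp 06 read -0.50, while the other 5 ssp arrays lay between -0.10 and 0.02. Its spots read -0.43 and -0.56 as deposited. Chance marks about 1 in 20 such sets.

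The spretus difference was more negative in liver/kidney than in brain and testis for Alb by -0.52 and for Trf by -0.39. Neither passed without spretus 02. The house mouse difference from the pool was larger in liver/kidney than in brain and testis for Trf by 0.35, Fgb by 0.16, Fgg by 0.25, Ahsg by 0.26, Hpx by 0.27, Apoa1 by 0.28 and Apoc3 by 0.36, on the log2 scale. Each tissue has a pool of its own.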

How the results depend on the processing

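Counts are of the 10 genes called by limma. The spretus contrast, with 4 called, had 5 on the first spot of each pair, 2 under quantile normalisation, 1 under array weights, 2 on the second spot of each pair (added after seeing the data), 0 with the array set as a random block and 0 for spretus minus cas within set 2. Leaving out 1 array gave 1 to 5. The pool contrast, with 9 called, had 0 with the array set as a random block, 9 on the first and 6 on the second spot of each pair (where Fga could not be tested), and 6 to 9 with an array left out. The cas contrast, with 0 called, had 1 on the first spot of each pair (Ahsg) and 0 to 1 with an array left out. The ssp contrast, with 0 called, had 1 under array weights (Fgb). The 4 pairs with spretus, with 9 calls in all, had 3 without spretus 02, also added after seeing the data. The tissue difference of the spretus contrast, with 2 called, had 0 without spretus 02, an alternative added after seeing the data.

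Animal numbers did not pair the arrays: over 27 pairs of same-numbered arrays of different groups the deviations correlated at -0.12 to 0.14. With the replicate block the spretus contrast called 2 and the pool contrast 8. The median pairwise correlation of 0.13 (jackknife SE 0.15) ran from 0.04 to 0.16 with an array left out, and was 0.05 under quantile normalisation. No called difference changed sign under any of these alternatives.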
